A study of Homo sapiens with 10 samples.

Results

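Among the 28265 genes counted in sorted thyroid progenitors and thyroid cells made from human embryonic stem cells (hESC), 24 were high on day 16 of culture and low in every library of the later days. A gene was taken into this group when the lower of its 2 day 16 values was at least 5 CPM (counts scaled so that each library sums to 1000000) and at least 3 times the highest value among the 8 libraries of days 23, 31, 38 and 45. The genes were thus chosen by their values on day 16 against the later days, and their fall after day 16 is described here without a test. The group was 0.0849% of all genes, and its members had a summed level of 1949 and 1953 CPM in the 2 day 16 libraries. That sum was 375 and 377 CPM on day 23, 304 and 312 CPM on day 31, 307 and 328 CPM on day 38, and 319 and 299 CPM on day 45.

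RNA-seq was performed on days 16, 23, 31, 38 and 45, with 2 libraries a day and 10 in all, on live cells sorted for GFP driven from 1 NKX2-1 allele. All libraries came from ESIBIe003-A-6, one modified hESC line derived from selected clones, in which doxycycline turns on transgenes for NKX2-1 and PAX8, a pair of transcription factors of the thyroid. After endoderm induction with Activin A and a pulse of doxycycline, the cells were kept in basal medium up to day 16 by the study's schedule, although the labels of day 16 name c-AMP, as do those of days 23 and 31. The labels of day 38 name TSH and DEX, and those of day 45 name TSH and SB. By the study's methods these are 8-br-cAMP (a cell-permeable cAMP analogue), recombinant human TSH (the hormone that drives the thyroid), dexamethasone (a glucocorticoid) and SB431542 (an inhibitor of TGF-beta receptor kinases), dexamethasone being kept on through day 45. Days 23 and 31 carry the same medium in their labels, although by the study's schedule it was changed shortly before day 31. At the other steps day of culture and medium changed together and cannot be told apart, and libraries of cells kept on cAMP alone are not analysed here. In RNA from sorted pools fewer cells of a kind and less RNA per cell cannot be told apart. Libraries held 7247268 to 10333933 counts. A value of 3 counts or fewer is treated here as at the limit of detection, and 3 counts stood for 0.290 to 0.414 CPM. NKX2-1, whose GFP allele defined the sort, had 94.0 and 83.2 CPM on day 16, and the thyroid factor FOXE1 had a mean of 781 CPM.

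The genes belong to several kinds. LAMB1, HMCN2 and OLFML2B encode proteins of the matrix around cells, where laminins are trimers of an alpha, a beta and a gamma chain that build the basement membrane on which epithelia such as thyroid follicles rest. Others encode receptors and signals known best from neurons, regulators of early embryonic patterning, and LIN28A, an RNA-binding protein of stem and progenitor cells that blocks maturation of the let-7 microRNAs. NOG encodes noggin, a secreted protein that binds BMP ligands and keeps them from their receptors.

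The fall was of very different depth among the 24 genes. The ratio of the lower day 16 value to the highest later value ran from 3.06 to 13.3 with a median of 3.99, and it was 3 to 4 for 12 genes, 4 to 6 for 8 and 6 or more for 4. The largest ratios were those of LIN28A (13.3), NKX1-2 (8.27), C5 (6.97) and DGKK (6.04). Just inside the 3-fold limit stood CHRFAM7A (3.06), DACH1 (3.11) and LAMB1 (3.16), and just outside it PRSS50 (2.998), RIMS4 (2.98) and MYCL (2.84). Along the limit of 5 CPM, LOC101928093 (6.23 CPM) and LPAR4 (6.96) were among those just inside, and LINC01220 (4.89), OR7E2P (4.15) and HAO2 (3.79) just outside. The number of members depended on both day 16 libraries: the rule gave 42 genes without replicate 1 of day 16 and 87 without replicate 2. The same rule applied to each other day gave 0 genes for day 23, 9 for day 31, 7 for day 38 and 84 for day 45.

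Low did not mean absent. Of the 24 genes, 13 had more than 3 counts in all 10 libraries, while 11 were at or under 3 counts in at least 1 later library. As a median over the genes, the mean level was 13.4% of the day 16 mean on day 23, 9.72% on day 31, 11.8% on day 38 and 7.54% on day 45. Among the later days, the highest mean was that of day 23 for 12 genes, day 31 for 2, day 38 for 8 and day 45 for 2. The day 16 libraries themselves differed: 13 genes were higher in replicate 1 and 11 in replicate 2, and 7 (29.2%) differed by more than 1.5-fold between them, against 18.7% of all genes at 5 CPM or more. SPSB4, LOC90246 and PAQR9 differed the most, by 2.26-, 2.13- and 2.01-fold, each higher in replicate 1.

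**Figure D1:**
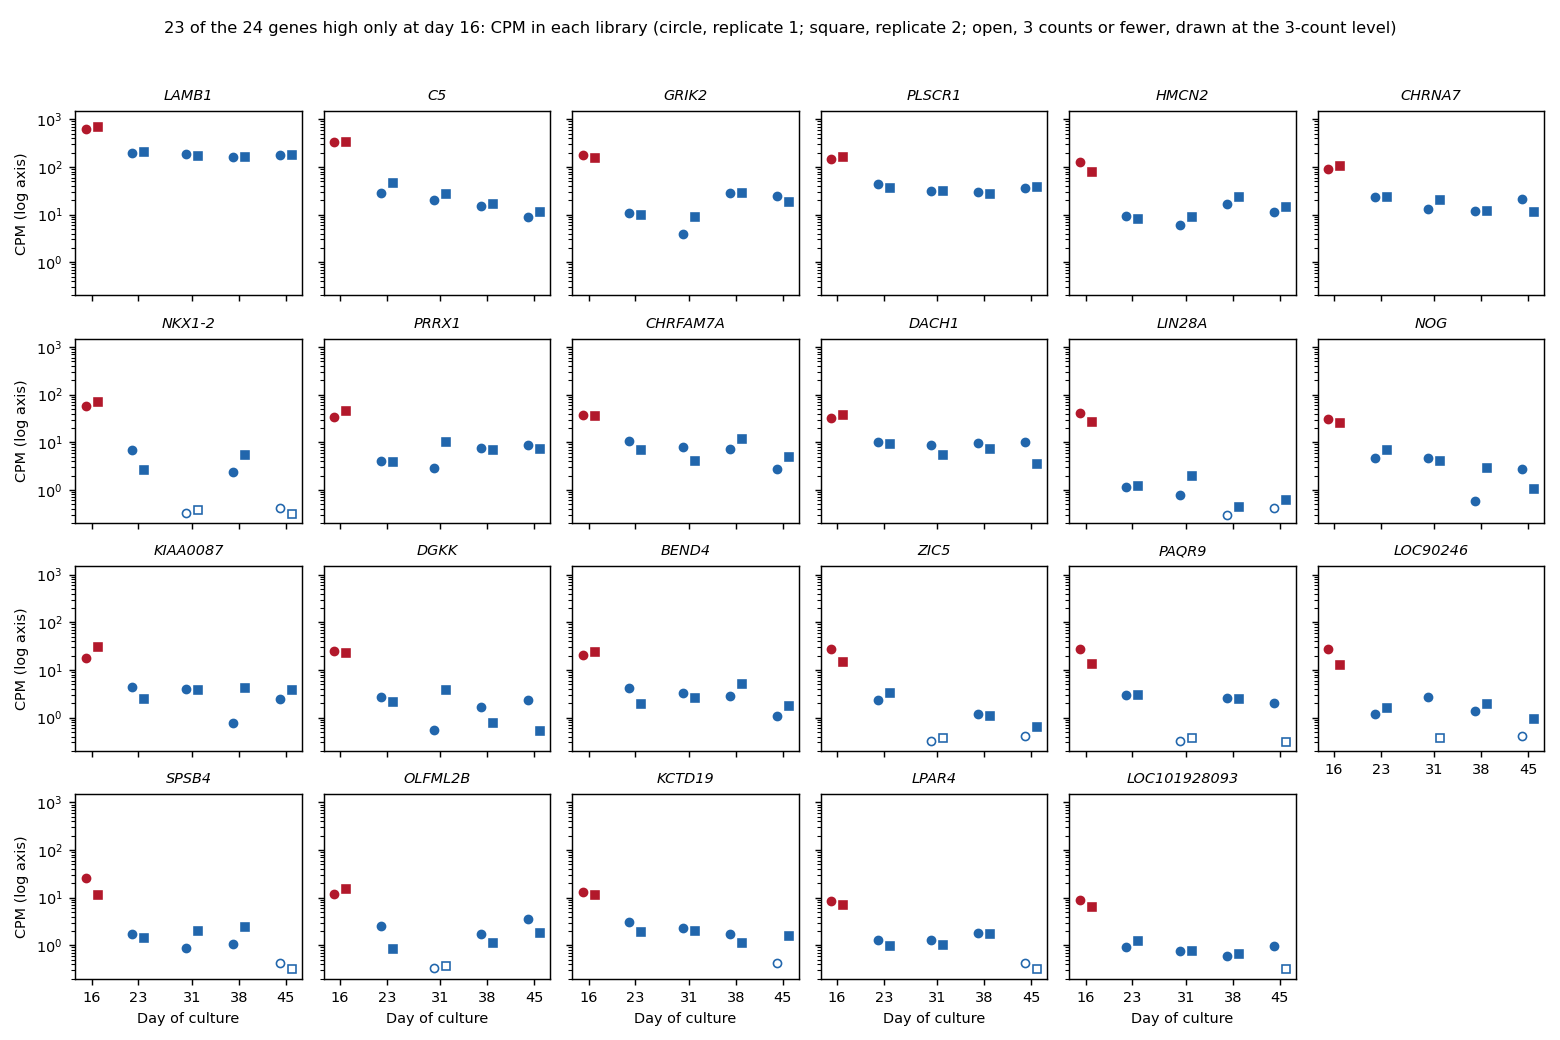
CPM (log axis) of 23 of the 24 genes in each library by day of culture. Red marks day 16 and blue the later days, circles are replicate 1 and squares replicate 2, and open symbols are values of 3 counts or fewer, drawn at the level of 3 counts. No step of LAMB1 or PLSCR1 between later days was called, and the C5 mean was lower on each later day than on the day before. NKX1-2, ZIC5, PAQR9 and OLFML2B were open on day 31 and filled again on day 38.

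The matrix genes fell to different floors. LAMB1, the beta-1 chain of laminin, lies on chromosome 7 at 107923799 to 108003161 (minus strand, GRCh38). It had 636 and 705 CPM on day 16, 195 and 201 on day 23, 188 and 172 on day 31, 159 and 162 on day 38, and 177 and 177 on day 45. All 8 later libraries lay within a narrow band, and from day 23 on no step between consecutive days was called. HMCN2, which encodes hemicentin-2, a very large matrix protein, had 125 and 78.8 CPM on day 16, 9.52 and 8.05 on day 23, and 5.92 and 9.05 on day 31. It then had 16.9 and 23.7 CPM on day 38 and 11.6 and 14.3 on day 45. OLFML2B, an olfactomedin-like protein of the matrix, had 12.1 and 15.4 CPM on day 16 and was at 0 and 1 count on day 31. Its later values are given with the other genes that were called lower from day 23 to day 31.

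Other laminin chains rose or were not called. Of the 11 other laminin genes, all tested from day 16 to day 23, 4 rose, 0 fell and the median log2 fold change was 0.74. In that comparison 5.6% of 21014 genes were called higher and 5.33% lower by edgeR's quasi-likelihood test after Benjamini-Hochberg adjustment, with a median of -0.02. LAMB3, a beta chain of epithelial laminin, rose from 1.66 to 21.9 CPM (log2 fold change 3.72 ± 0.48 SE, adjusted p = 6.64e-07). LAMA2 and LAMA4 also rose. LAMC1, the gamma chain that pairs with LAMB1 in most laminins, had 610.2 CPM on day 16 and 789 on day 23 (adjusted p = 0.0543). In contrast, HMCN1, the other hemicentin gene and not one of the 24, fell from 259 to 63.5 CPM (-2.07 ± 0.17, adjusted p = 2.39e-11), and OLFML1 fell among the 3 olfactomedin-like relatives tested. These families were written down after the 24 genes were known.

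**Figure D2:**
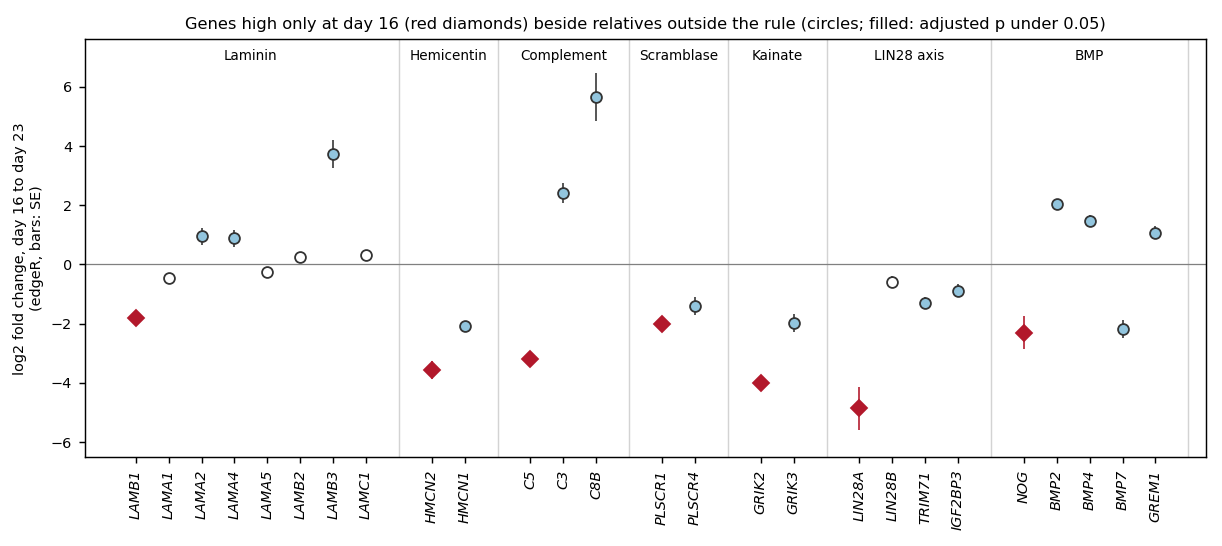
Log2 fold change from day 16 to day 23 (edgeR, bars are SE) of 7 of the 24 genes (red diamonds) and of relatives that the rule did not take (circles, filled where the adjusted p was under 0.05). LAMB3, C3, C8B, BMP2, BMP4 and GREM1 rose while their relative among the 24 fell, whereas HMCN1, PLSCR4, GRIK3, TRIM71, IGF2BP3 and BMP7 fell.

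C5 encodes the complement component from which the inflammatory peptide C5a and the first piece of the membrane attack complex are cut. It had 327 and 333 CPM on day 16, 27.9 and 46.9 on day 23, 20.5 and 26.7 on day 31, 15.0 and 16.7 on day 38, and 8.97 and 11.3 on day 45. The mean was lower at every later day than at the day before, and the day 45 mean was 3.07% of that of day 16. The steps from day 23 to day 31 and from day 31 to day 38 were not called (adjusted p = 0.0728 and 0.311 in edgeR). The step from day 38 to day 45 was called, but the call was lost under 11 of the 16 alternatives. From day 23 to day 45, a contrast the rule did not use, C5 fell by 1.73 ± 0.22 in log2 units (adjusted p = 1.40e-07 in edgeR), with no overlap between the days. Of 9 complement genes and receptors outside the 24 that were tested, 2 rose and 0 fell from day 16 to day 23, with a median log2 fold change of 2.41, where 5.6% of all genes tested were called higher and 5.33% lower and the median was -0.02. C3, the central component of the cascade, rose from 4.24 to 23.1 CPM (2.41 ± 0.35, adjusted p = 6.51e-06), and C8B from 0.366 to 20.6 CPM (adjusted p = 4.15e-06). C5-OT1, an RNA gene that overlaps the far end of C5, had a mean of 6.42 CPM on day 16 and 0.348 on day 23 and was not called (adjusted p = 0.133).

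PLSCR1, a phospholipid scramblase of the plasma membrane that interferon induces, was not called between consecutive days from day 23 on. It had 146 and 165 CPM on day 16, 43.3 and 36.4 on day 23, 31.6 and 32.0 on day 31, 30.3 and 27.2 on day 38, and 35.5 and 38.5 on day 45. Per kilobase of GENCODE exon, known for 22 of the 24 genes, PLSCR1 (35.9 CPM per kb) and LAMB1 (36.1) had the highest day 16 levels of those 22, ahead of NKX1-2 (19.9), C5 (19.5) and NOG (14.5). Of the 2 scramblase genes outside the 24 that were tested, PLSCR2, with means of 4.48 CPM on day 16 and 2.58 on day 23, was not called (adjusted p = 0.652), and PLSCR4 fell from 38.9 to 15.2 CPM (-1.40 ± 0.32, adjusted p = 0.0025). In that comparison 5.33% of all genes tested were called lower and 5.6% higher.

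Several of the 24 genes encode receptors or an enzyme of receptor signaling. GRIK2, a subunit of kainate-type glutamate receptors, had 174 and 151 CPM on day 16, 10.9 and 9.98 on day 23, 3.95 and 8.68 on day 31, 28.7 and 28.1 on day 38, and 25.0 and 18.3 on day 45. It thus regained part of its level, with a mean of 17.4% of day 16 on day 38 against 3.88% on day 31. CHRNA7, the alpha-7 nicotinic acetylcholine receptor, had 89.4 and 106 CPM on day 16 and 11.4 to 23.1 CPM in the later libraries. CHRFAM7A, a human fusion gene that holds a partial copy of CHRNA7, had a mean of 36.8 ± 1.74 CPM (SD, n = 2) on day 16 and 2.76 to 11.6 later. Of the 50-base stretches of CHRFAM7A, 88.8% also occur in another gene and 63.9% in CHRNA7, and 12.1% of those of CHRNA7 occur in CHRFAM7A, so most of CHRFAM7A cannot be counted uniquely, the split of reads between them is uncertain, and they are not independent members.

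LPAR4, a receptor for lysophosphatidic acid, had 8.34 and 6.96 CPM on day 16, between 0.962 and 1.84 from day 23 to day 38, and 1 count in each library on day 45. DGKK, a diacylglycerol kinase, had 25.4 and 22.5 CPM on day 16 and 0.521 to 3.72 later.

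Of 40 other genes on a list of neuronal ion channels and receptors, 1 rose (CACNA1H) and 3 fell (SCN1A, CACNA1A and GRIK3) from day 16 to day 23, with a median log2 fold change of -0.08, where 5.33% of all genes tested were called lower and 5.6% higher and the median was -0.02. GRIK3, the kainate receptor subunit, fell from 63.8 to 16.6 CPM (-1.99 ± 0.31, edgeR adjusted p = 1.63e-05). None of 8 other nicotinic receptor genes and none of 4 other LPA receptor genes tested was called.

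LIN28A had the largest ratio. It had 41.6 and 26.4 CPM on day 16, 1.16 and 1.20 on day 23, 0.767 and 1.98 on day 31, 0 and 0.439 on day 38, and 0 and 0.625 on day 45. Its paralog LIN28B, which also blocks let-7, stayed at a higher level, with a mean of 123 CPM on day 16 and 84.2 on day 23 (-0.59 ± 0.21, adjusted p = 0.066). Of the 8 genes of the LIN28 and let-7 family tested beside LIN28A, 2 fell and 0 rose: TRIM71, a ubiquitin ligase under let-7 control, from 155 to 65.0 CPM (-1.30 ± 0.19, adjusted p = 6.70e-06), and IGF2BP3, an RNA-binding protein, from 71.3 to 39.9 CPM (-0.88 ± 0.23, adjusted p = 0.0094). LIN28A was also the one member on a list of 20 pluripotency genes. Of the 16 others tested, L1TD1, SALL4 and TRIM71 fell and PODXL rose, with a median log2 fold change of -0.05, where 5.33% of all genes tested were called lower and 5.6% higher and the median was -0.02. The defining gene POU5F1 was at 0 in both day 16 libraries, as were UTF1, GDF3, PRDM14 and FGF4. The summed list, with PODXL its most abundant gene on day 16, went from 1013 and 920 CPM on day 16 to 911 and 837 on day 23. That sum was 738 and 788 CPM on day 31, 200 and 219 on day 38, and 141 and 116 on day 45.

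Transcription factors and signals of early patterning made up the next set. NKX1-2, a homeobox factor, had 56.7 and 71.1 CPM on day 16. PRRX1, a homeobox factor of mesenchyme, had 34.3 and 45.1 CPM on day 16, 3.95 and 3.85 on day 23, and 2.85 and 10.0 on day 31, and 6.91 to 8.97 after that. DACH1, a nuclear co-repressor of organ development, had 32.2 and 36.5 CPM on day 16 and 3.44 to 10.3 later. ZIC5, a zinc finger factor of the neural plate, had 27.9 and 15.0 CPM on day 16, and BEND4, a BEN domain protein, 20.4 and 23.6 CPM, with 1.10 to 5.15 later. NOG had 30.1 and 25.3 CPM on day 16, 4.65 and 6.85 on day 23, 4.60 and 3.97 on day 31, 0.581 and 2.85 on day 38, and 2.76 and 1.04 on day 45.

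From day 16 to day 23, 7 of 52 other genes of the TGF-beta and BMP list rose and 4 fell, with a median log2 fold change of 0.09, where 5.33% of all genes tested were called lower and 5.6% higher and the median was -0.02. The ligands BMP2 (30.4 to 129 CPM, 2.05 ± 0.18, adjusted p = 1.79e-10) and BMP4 (55.7 to 159 CPM, 1.48 ± 0.18, adjusted p = 3.21e-07) rose while their antagonist noggin was lower. GREM1, another antagonist, rose from 47.9 to 104 CPM (adjusted p = 4.95e-04). BMP7 fell from 24.5 to 5.55 CPM (-2.19 ± 0.30, adjusted p = 2.15e-06).

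Markers of other cell types were measured beside these factors. The sort for NKX2-1 GFP should remove mesenchyme, whose genes were counted all the same. Of 16 mesenchyme genes tested without PRRX1, 5 rose from day 16 to day 23 (DCN, LUM, COL3A1, POSTN and ZEB1) and 2 fell (COL1A2 and VIM), and the summed list, led by VIM, was 2921 and 3165 CPM on day 16 and 2778 and 2772 on day 23. NKX2-1 is also made in the ventral forebrain, and of 19 forebrain progenitor genes tested 0 rose and 1 fell (NR2F1), with a median log2 fold change of -1.38. Their sum was 69.4 and 42.1 CPM on day 16, 19.6 and 33.9 on day 23, 27.4 and 36.2 on day 31, 53.8 and 57.6 on day 38, and 39.2 and 30.1 on day 45. OTX2 was the most abundant of the 26 on day 16, with a mean of 19.9 CPM, and RAX, NKX2-2, OLIG2, LMX1A and DLX1 were at 0. NKX2-1 marks lung progenitors too, and of 15 lung and airway genes tested 4 rose, among them SFTPB and SOX9, and 1 fell (TP63), with a median of 0.00. That list of 16 genes summed to 66.1 and 51.5 CPM on day 16, 265 and 251 on day 23, 761 and 799 on day 31, 163 and 155 on day 38, and 321 and 265 on day 45. FOXJ1 led it on day 16 with a mean of 14.7 CPM, and 4 of its genes, the surfactant gene SFTPC among them, were at 0. Of 30 cell cycle genes, 6 fell and 0 rose, with a median of -0.52, where 5.33% of all genes were called lower, 5.6% higher and the median was -0.02. The part of such cells, or of division, in the levels of the 24 genes was not tested.

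The remaining genes have less settled roles. PAQR9, a membrane protein of the progestin and adipoQ receptor family, had 27.3 and 13.6 CPM on day 16. SPSB4, an adaptor of ubiquitin ligases, had 25.4 and 11.2 CPM on day 16, 1.74 and 1.44 on day 23, and 2 and 0 counts on day 45. KCTD19, known from meiosis in germ cells, had 13.4 and 11.4 CPM on day 16 and 0.414 to 3.14 later. Of the 3 long noncoding RNAs, LOC90246 had 27.3 and 12.8 CPM on day 16, KIAA0087 17.7 and 30.3, and LOC101928093 8.87 and 6.23, and none exceeded 4.41 CPM in a later library.

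The edgeR fit called 21 of the 24 genes lower on day 23 than on day 16, where 5.33% of all genes were called lower and 5.6% higher. It called 21, 22 and 23 lower on days 31, 38 and 45, where 5.87%, 6.48% and 11.7% of all genes were called lower and 7.0%, 9.84% and 12.9% higher. Because these contrasts chose the genes, nothing is read from these counts. The comparisons among later days are different. The rule set a ceiling on the later levels but gave them no order.

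From day 23 to day 31, 4 of the 24 genes fell and 0 rose, where 0.666% of all genes were called lower and 1.58% higher. The median log2 fold change was -0.31 over the 24 genes and 0.00 over all genes tested. NKX1-2 went from 59 and 22 counts on day 23 to 1 and 1 on day 31 (log2 fold change -5.20 ± 0.76 SE, adjusted p = 3.33e-05), a ratio of 41.1 with an exact 95% counting interval of 11.0 to 345, which covers counting error only. PAQR9 went from 26 and 25 counts to 0 and 0 (adjusted p = 0.0035), at least 8.60-fold lower against a level of 3 counts per library. Both day 31 libraries of each gene were at the limit of detection while both day 23 libraries were well above it.

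ZIC5 went from 20 and 27 counts to 1 and 0 (adjusted p = 0.0023), a ratio of 47.7 with an interval of 8.16 to 1924. OLFML2B went from 22 and 7 counts to 0 and 1 (adjusted p = 0.0347), a ratio of 29.4 with an interval of 4.88 to 1203. The day 23 and day 31 values of neither gene overlapped. Fitted log2 fold changes of genes this close to 0 depend on the prior count of the fit. With only the 4 libraries of days 23 and 31 in the fit 0 of the 24 genes were called, and without either day 31 library, which leaves a lone sample that is assumed to vary like the other days, 2 were. Of the 4 genes, only NKX1-2 was called without either one (adjusted p = 0.0110 and 0.0069). PAQR9 was not called without replicate 1 (adjusted p = 0.123) or replicate 2 (0.0736) of day 31, ZIC5 was not without replicate 2 (0.0538), and OLFML2B was not without replicate 1 (0.366) or replicate 2 (0.0862). The other gene called without replicate 2 was GRIK2. The call of OLFML2B was also lost with DESeq2 and without 3 other libraries (either of day 16, or replicate 1 of day 23).

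From day 31 to day 38, when the labelled medium passed from c-AMP to TSH and DEX, 6 of the 24 genes rose and 0 fell, where 8.8% of all genes were called higher and 6.23% lower. The median log2 fold change was 0.43 over the 24 genes and 0.00 over all genes tested. GRIK2 went from 36 and 70 counts to 297 and 256 (2.40 ± 0.28, adjusted p = 3.72e-08), and HMCN2 from 54 and 73 counts to 175 and 216 (1.65 ± 0.30, adjusted p = 1.00e-04). Neither gene's values overlapped between the days. With 2 libraries a day this is a weak criterion, here and in the other comparisons. LAMB1 met it too and was not called (edgeR adjusted p = 0.856). GRIK2 and HMCN2 were the most deeply counted of the 6 genes. HMCN1, the relative of HMCN2 outside the 24, fell from day 23 to day 31 (63.5 to 32.4 CPM, -0.99 ± 0.17, adjusted p = 3.13e-04) and rose to 92.6 CPM on day 38 (1.73 ± 0.17, adjusted p = 1.02e-09). GRIK3, in contrast, had a mean of 20.3 CPM on day 31 and 11.0 on day 38 and was not called (adjusted p = 0.160).

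The other genes that rose were the 4 called lower from day 23 to day 31, and both comparisons share the day 31 libraries. NKX1-2 went from 1 and 1 counts to 24 and 49 (5.07 ± 0.77, adjusted p = 6.43e-06), a ratio of 32.2 with an interval of 8.61 to 271. PAQR9 went from 0 and 0 counts to 27 and 22 (adjusted p = 6.41e-04), at least 7.17-fold higher. ZIC5 went from 1 and 0 counts to 12 and 10 (adjusted p = 0.0071), a ratio of 19.4 with an interval of 3.14 to 802. OLFML2B went from 0 and 1 counts to 18 and 10 (adjusted p = 0.0085), a ratio of 24.7 with an interval of 4.09 to 1011. All 4 genes stayed far below day 16 on day 38, at 6.02% (NKX1-2), 12.3% (PAQR9), 5.25% (ZIC5) and 10.3% (OLFML2B) of its mean. On day 45 PAQR9 split, with 15 counts in replicate 1 and 0 in replicate 2, while OLFML2B had 3.59 and 1.77 CPM. The calls of GRIK2, HMCN2, NKX1-2 and PAQR9 held under all 16 alternatives. Those of ZIC5 and OLFML2B were lost with only the 4 libraries in the fit, that of ZIC5 also without replicate 2 of day 31, and that of OLFML2B without replicate 1 of day 31 or of day 38. Beside these rises, 2 of 19 forebrain progenitor genes rose (OTX2 and NR2F1) and 7 of 16 mesenchyme genes rose and 2 fell, where 8.8% of all genes were called higher and 6.23% lower. The summed mesenchyme list was 2856 and 3251 CPM on day 31 and 6293 and 6578 on day 38. Of the 15 lung and airway genes tested, 5 rose and 0 fell from day 23 to day 31, where 1.58% of all genes were called higher and 0.666% lower, and 2 rose and 3 fell from day 31 to day 38. The surfactant gene SFTPB led them, with means of 164 CPM on day 23, 535 on day 31 and 7.01 on day 38. The part of these cell types in the low values of day 31 or in the later rise was not tested.

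**Figure D3:**
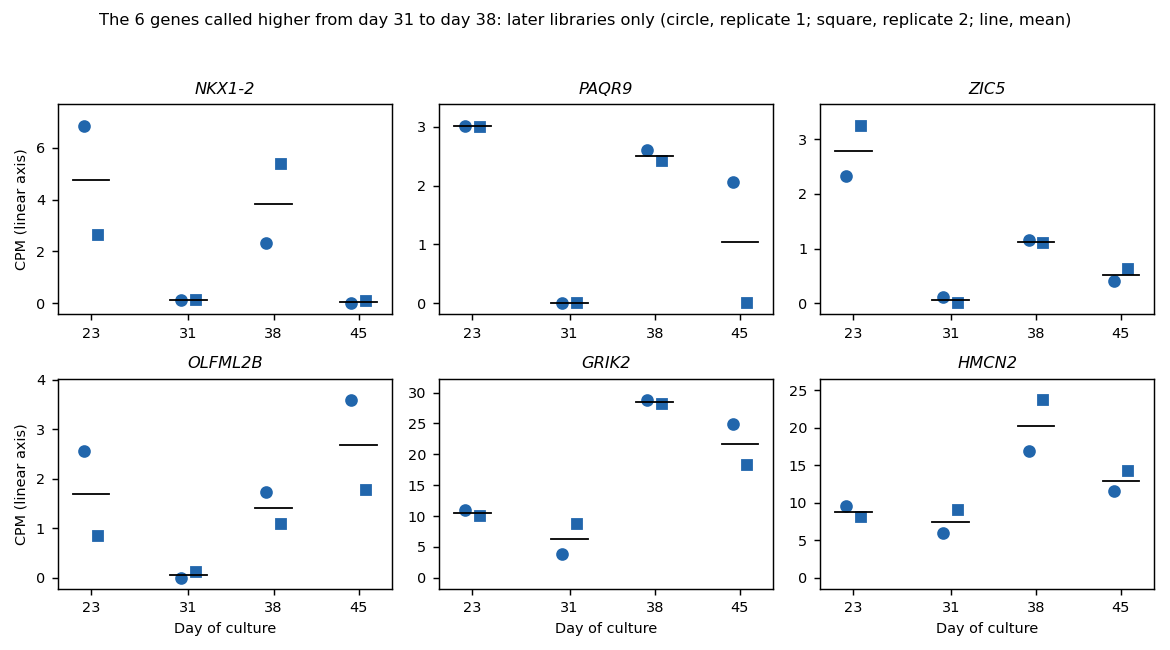
CPM (linear axes) of the 6 genes called higher from day 31 to day 38, in the libraries of days 23 to 45, with circles for replicate 1, squares for replicate 2 and lines for the mean of a day. For NKX1-2, PAQR9, ZIC5 and OLFML2B both day 31 libraries lay at or near 0, and for GRIK2 and HMCN2 both day 38 libraries lay above all those of days 23 and 31.

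The promoters of these 4 genes are shown because the genes were low and returned at the same days. Each is the first window that RefSeq (GRCh38.p14) gives for the gene, from 250 bases before to 50 bases after a start site, on the strand of the gene. Capitals mark TGACG (the half-site of a cAMP response element), CCAAT (the CCAAT box) and GGGCGG (the GC box) on either strand. The windows are chr10:124449986-124450285 for NKX1-2, chr3:142963959-142964258 for PAQR9, chr13:99971860-99972159 for ZIC5 and chr1:162023820-162024119 for OLFML2B, all on the minus strand.
NKX1-2: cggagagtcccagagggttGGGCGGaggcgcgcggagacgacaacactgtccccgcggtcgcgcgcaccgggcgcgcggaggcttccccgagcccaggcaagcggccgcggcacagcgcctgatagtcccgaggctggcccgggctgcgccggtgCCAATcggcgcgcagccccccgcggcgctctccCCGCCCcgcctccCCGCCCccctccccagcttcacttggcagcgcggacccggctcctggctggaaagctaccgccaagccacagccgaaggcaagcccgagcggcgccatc
PAQR9: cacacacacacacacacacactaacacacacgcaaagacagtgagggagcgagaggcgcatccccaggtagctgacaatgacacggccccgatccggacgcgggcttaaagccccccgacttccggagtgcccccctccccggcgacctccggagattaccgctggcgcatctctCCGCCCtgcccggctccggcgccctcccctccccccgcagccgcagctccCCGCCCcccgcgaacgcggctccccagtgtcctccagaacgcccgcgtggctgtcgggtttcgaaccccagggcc
ZIC5: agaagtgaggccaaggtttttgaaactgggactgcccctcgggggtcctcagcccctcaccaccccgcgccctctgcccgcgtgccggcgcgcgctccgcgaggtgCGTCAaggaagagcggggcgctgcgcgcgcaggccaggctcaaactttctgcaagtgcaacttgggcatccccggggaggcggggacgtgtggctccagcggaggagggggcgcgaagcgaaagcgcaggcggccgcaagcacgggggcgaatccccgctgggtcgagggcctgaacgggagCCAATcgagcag
OLFML2B: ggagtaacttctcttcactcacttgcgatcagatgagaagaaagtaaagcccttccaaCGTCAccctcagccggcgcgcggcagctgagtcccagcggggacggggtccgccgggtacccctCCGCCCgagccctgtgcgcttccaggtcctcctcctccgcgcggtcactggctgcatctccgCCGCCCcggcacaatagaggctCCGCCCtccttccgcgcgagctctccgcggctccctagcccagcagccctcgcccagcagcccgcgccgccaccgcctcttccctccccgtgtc

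No motif of those searched is in all 4 of these first windows, although another window of ZIC5 holds GGGCGG, so that over all their windows the 4 genes share it. Among the first windows, GGGCGG or its reverse complement is in those of NKX1-2, PAQR9 and OLFML2B, CCAAT in those of NKX1-2 and ZIC5, and TGACG in those of ZIC5 and OLFML2B. Counted over every window of the 19 members with a RefSeq promoter, TGACG was found for 7 genes (36.8%, against 28.4% of 27305 genes), CCAAT for 10 (52.6% against 39.7%), GGGCGG for 12 (63.2% against 48.3%) and TATAAA, the TATA box, for 4 (21.1% against 14.0%). The full cAMP response element TGACGTCA, which holds TGACG, was found for 0 of 19 genes (2.25% of all), the AP-1 site TGACTCA for 1 (6.05%) and the TCF/LEF core CTTTGAT for 1 (3.18%). The median GC content of the first windows was 69.3%, against 58.3% for all genes. Such matches describe letters in these windows only. LIN28A, NOG, KCTD19 and LOC101928093 are not among the 19.

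From day 38 to day 45, the step at which the labels first name SB, 5 of the 24 genes fell and 0 rose, where 6.35% of all genes were called lower and 4.85% higher. The median log2 fold change was -0.50 over the 24 genes and -0.02 over all genes tested. NKX1-2 fell again, from 24 and 49 counts to 0 and 1 (-5.76 ± 0.87, adjusted p = 8.99e-06), a ratio of 63.2 with an interval of 11.0 to 2530. SPSB4 went from 11 and 22 counts to 2 and 0 (adjusted p = 0.0189) and LPAR4 from 19 and 16 to 1 and 1 (adjusted p = 0.0467). CHRFAM7A, whose counts are uncertain because of its shared sequence, went from 74 and 106 to 20 and 46 (-1.34 ± 0.44, adjusted p = 0.0441), and C5 from 155 and 152 to 65 and 108 (-0.69 ± 0.23, adjusted p = 0.0459). Only NKX1-2 kept its call under all 16 alternatives among these 5 genes. The call was lost under 11 alternatives for C5, 9 for LPAR4, 8 for CHRFAM7A and 4 for SPSB4. The number called ranged from 1 to 5 when a library was left out, with 1 without replicate 2 of day 38, 2 without replicate 1 of day 16, 2 without replicate 2 of day 16, 2 without replicate 1 of day 38, 3 without replicate 1 of day 45 and 2 without replicate 2 of day 45.

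Over the whole later course, from day 23 to day 45, 1 gene rose and 4 fell, where 13.7% of all genes were called higher and 12.8% lower. The median log2 fold change was -0.91 over the 24 genes and 0.03 over all genes tested. GRIK2 was the gene that rose, from 94 and 83 counts to 181 and 176 (1.19 ± 0.27, adjusted p = 7.41e-04). Beside C5, those that fell were NKX1-2 (59 and 22 counts to 0 and 1, adjusted p = 1.53e-06), SPSB4 (15 and 12 to 2 and 0, adjusted p = 0.0174) and ZIC5 (20 and 27 to 3 and 6, adjusted p = 0.0303). The other 19 genes were not called, which does not show that they were level. The calls of C5, GRIK2 and NKX1-2 held under all 16 alternatives, those of SPSB4 and ZIC5 did not, and without replicate 1 of day 16 the count was 3.

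**Figure D4:**
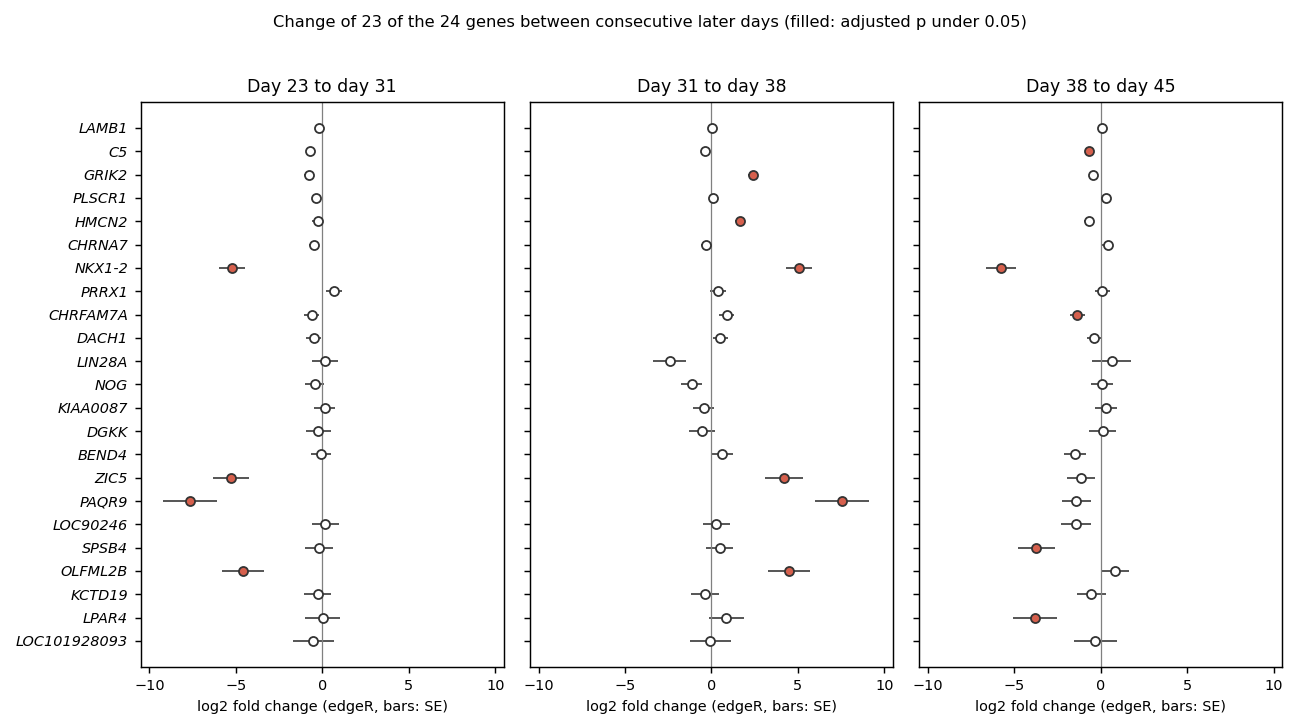
Log2 fold change (edgeR, bars are SE) of 23 of the 24 genes between consecutive later days, filled where the adjusted p was under 0.05. The 4 genes that fell from day 23 to day 31 (NKX1-2, ZIC5, PAQR9 and OLFML2B) are filled again to the right of 0 from day 31 to day 38, and NKX1-2 alone is filled in all 3 panels.

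The 24 genes lie on 13 chromosomes, and 21 are protein-coding. Of the 48 genes that flank them and are not members, 8 (16.7%) fell from day 16 to day 23 and 2 (4.17%) rose, with a median log2 fold change of -0.45. Of all genes tested 5.33% were called lower and 5.6% higher, with a median of -0.02. Both neighbours fell for NKX1-2, at chromosome 10 124445243 to 124450035 (OAT fell by 1.14 and LHPP fell by 1.99 in log2 units, adjusted p = 3.67e-05 and 0.0015 in edgeR), and for SPSB4 (SLC25A36 and PXYLP1). LRRC36, 74 bases from KCTD19, fell by 2.11 (adjusted p = 0.0026), and LINC02249 beside CHRFAM7A fell by 1.28. The strand setting of the counting was not given in the sources used here, so reads of genes that overlap on opposite strands cannot be told apart. Such overlap covers 37.7% of the exon bases of NKX1-2, 25.6% of those of CHRFAM7A, 9.93% of PAQR9 and 8.94% of KIAA0087 in GENCODE.

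Outside the group, the genes whose log2 CPM followed the mean profile of the 24 most closely over the 10 libraries were PDE6B (Pearson r 0.97), a phosphodiesterase subunit, and PWAR6 (0.97), a noncoding RNA. They had a ratio of day 16 to the highest later value of 1.60 and 2.08 and so missed the rule. H2BP1, MIR599 and FEZF2 (0.96 each) came next but were at 0 in all later libraries and under 5 CPM in a day 16 library. Libraries of the same day are not independent points of such a profile, and the r is a description.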

How the data were processed

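The authors sorted live NKX2-1 GFP+ cells, made total RNA libraries with a low-input kit, and ran Trimmomatic on the reads, HISAT2 for alignment to GRCh38 and HTSeq for counts per gene. By the submitters' processing notes the build was GRCh38.p13, and versions and strand setting are not given in the sources used here. The counts deposited by the authors are raw whole numbers for 28265 gene symbols per library, and in each file as many empty rows carry no gene and no count. Counted totals of 7247268 to 10333933 limit the lowest levels, and intervals cover counting error only, since PCR copies were not separated.

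From these counts CPM was computed and the rule applied. The 21014 genes that reached 5 counts in 2 or more libraries were fitted in edgeR 4.0.16 (R 4.3.3, TMM factors, glmQLFit and glmQLFTest) with 1 mean per day over 10 libraries and 5 residual degrees of freedom. All 24 members passed this filter. P-values were adjusted by Benjamini-Hochberg over all genes tested with a threshold of 0.05. They measure the spread between the 2 libraries of a day, whose counts differed beyond sampling noise in every pair (chi-square per degree of freedom 8.38 to 13.7). SE is the absolute log2 fold change over the square root of F. Scripts were tested on simulated data.

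Named genes were the 12 members highest at day 16, the 12 with the largest ratio, the 3 most changed in each direction per later comparison, genes beside the limits, 5 genes of like profile, and, beyond this rule and chosen with their values seen, the other members and the relatives and neighbours. The members and all lists were chosen with earlier results of these data known, and the relatives after the members were. Positions and promoters came from RefSeq (GRCh38.p14, whose chromosomes match those of p13), exon lengths and overlaps from GENCODE 44. Alternatives covered the rule, normalization, DESeq2 1.42.0, the low-count filter, the libraries fitted, a replicate block and leaving out each library. The values of 1 member and of some relatives are not reported here.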

Additional observations from a re-analysis of the deposited data

How the results depend on the processing

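With 2 libraries a day, depth limits what can be said of the 11 genes at or under 3 counts in a later library. The rule gave 22 genes with TMM-scaled values and 21 with a minimum of 10 CPM. It gave 95 genes at 2-fold, 7 at 5-fold, 47 with a minimum of 1 CPM and 84 with day means. Leaving out 1 library gave 24 to 87. Calls from day 23 to day 31 (4 genes) became 0 with only the 4 libraries compared and 1 among the genes of the 5-fold rule, and ranged from 2 to 4 with a library left out. From day 31 to day 38 (6 genes) they became 2 among the 5-fold genes and ranged from 5 to 8. From day 38 to day 45 (5 genes) they became 2 without TMM factors, 3 with DESeq2, 1 with only the 4 libraries compared and 2 among the 5-fold genes, and ranged from 1 to 5. From day 23 to day 45 (5 genes) they became 3 with only the 4 libraries compared and 3 among the 5-fold genes, and ranged from 3 to 6. The smaller counts with 4 libraries or with the 5-fold rule come with fewer libraries or fewer genes, and the cause of the other shifts was not tested. For the alternative fits the share of all genes called is not given here. Shifts under those fits thus cannot be told apart from a change in calls over all genes. No call of a named gene changed direction under any of the 16 alternatives.

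No shared effect of the replicate number was seen: the deviations of same-numbered libraries from their day means correlated at -0.03 to 0.02 over 10 pairs of days. Whether same-numbered libraries came from the same differentiation run cannot be told from these values. With the replicate number as a block, 5, 7, 4 and 7 genes of the group were called in the comparisons of day 23 to 31, 31 to 38, 38 to 45 and 23 to 45. The share of all genes called with this block is not given here. Whether these counts differ from the fit without a block for the group alone or for all genes was therefore not tested.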
